A study of Mus musculus with 43 samples.

Results

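Cytochrome P450 genes made up 91 of the 42349 entries of an expression table that covered 4 mouse tissues: inguinal white adipose tissue (WAT), liver, brain and skeletal muscle. Members were the entries that name 1 gene whose symbol starts with Cyp, a number, a letter and a number. This rule used names alone, though the gene set was chosen with earlier results of these data known. They fell into 16 families and 36 subfamilies. Entries of 13 pseudogenes, 8 entries that join a P450 gene to an overlapping gene, 1 opposite-strand transcript, Cyp51 and Cyp2ab1 were left out.

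Polyadenylated RNA was sequenced from female mice at 15 months of age that were either wild type (WT, Irs1+/+) or global knockouts of insulin receptor substrate 1 (KO, Irs1-/-). Each genotype was fed the same chow ad libitum (AL) or was kept on dietary restriction (DR) of 30% for 12 months, with a single daily feed in the late afternoon and a start at 10 weeks of age. This gave WTAL, WTDR, KOAL and KODR groups in each of 4 tissues, from 43 libraries at 2 or 3 per group. The deposited value of a gene is 1 FPKM (fragment counts scaled by transcript length and library size) for the whole group, with a 95% interval. No spread between mice could be computed, no exact test over mice was possible, and every error and p below comes from those intervals alone. The FPKM of Irs1 itself ran from 2.58 to 6.31 in KO groups and from 1.62 to 6.56 in WT groups, and KO stood below WT in only 1 of 8 same-diet pairs, so all directions are those of the labels. In bulk tissue, fewer cells of a type and less RNA per cell cannot be told apart.

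P450 enzymes are haem proteins that insert an oxygen atom into lipids, steroids, retinoids, drugs and other foreign compounds, taking electrons from cytochrome P450 reductase in the endoplasmic reticulum or from adrenodoxin in mitochondria. Families 1 to 3 handle mainly foreign compounds, family 4 mainly fatty acids, and higher-numbered families bile acids, steroid hormones, retinoic acid and vitamin D. Liver carries the broadest set, much of it set by nuclear receptors such as CAR, PXR and PPARalpha, by bile acids and, in rodents, by the sex-dependent pattern of growth hormone release.

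The liver results turn on a cluster of the Cyp3a subfamily, enzymes of steroid and drug oxidation, in which Cyp3a16 and Cyp3a44 were called lower in KODR than in KOAL while the neighbouring Cyp3a11 was not called. Cyp3a16, Cyp3a41b, Cyp3a41a, Cyp3a44 and Cyp3a11 lie in this order on chromosome 5 between positions 145436309 and 145879964 (GRCm38), all on the minus strand. Their promoters are shown because they are so alike. The RefSeq windows (GRCm38.p6, minus strand, 5′ to 3′, 250 bases before to 50 after the start site) follow, with 2 searched motifs in capitals where they occur, TATAAA and AGGTCA, the latter the core letters that many nuclear receptors bind.

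Cyp3a16, chr5:145469674-145469973: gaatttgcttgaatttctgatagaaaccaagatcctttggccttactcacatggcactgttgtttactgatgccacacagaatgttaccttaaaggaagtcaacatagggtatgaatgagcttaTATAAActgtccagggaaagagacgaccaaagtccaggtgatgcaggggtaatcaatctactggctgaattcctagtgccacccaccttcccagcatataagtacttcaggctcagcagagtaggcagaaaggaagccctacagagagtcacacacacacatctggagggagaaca
Cyp3a41a, chr5:145720087-145720386: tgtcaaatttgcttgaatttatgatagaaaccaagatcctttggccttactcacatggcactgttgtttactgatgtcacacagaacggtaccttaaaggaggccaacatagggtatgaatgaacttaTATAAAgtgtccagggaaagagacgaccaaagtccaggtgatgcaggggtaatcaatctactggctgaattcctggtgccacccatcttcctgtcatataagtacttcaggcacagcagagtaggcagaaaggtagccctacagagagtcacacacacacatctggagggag
Cyp3a44, chr5:145805825-145806124: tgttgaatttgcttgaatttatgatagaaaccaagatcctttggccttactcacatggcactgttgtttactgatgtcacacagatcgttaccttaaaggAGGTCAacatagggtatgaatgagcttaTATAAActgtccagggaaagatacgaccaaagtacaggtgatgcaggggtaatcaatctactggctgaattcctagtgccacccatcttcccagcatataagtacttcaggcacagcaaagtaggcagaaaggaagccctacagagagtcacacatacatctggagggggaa
Cyp3a11, chr5:145879805-145880104: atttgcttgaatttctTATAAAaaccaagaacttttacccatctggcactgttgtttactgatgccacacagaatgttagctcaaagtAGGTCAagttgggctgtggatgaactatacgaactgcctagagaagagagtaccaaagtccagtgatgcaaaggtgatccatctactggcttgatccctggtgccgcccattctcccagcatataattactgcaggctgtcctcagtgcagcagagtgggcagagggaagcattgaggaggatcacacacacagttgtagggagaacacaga

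The promoters of Cyp3a16 and Cyp3a44 were 95.9% identical, those of Cyp3a41a and Cyp3a41b 99.7%, and that of Cyp3a11 was 82.2% identical to Cyp3a16 and 79.2% to Cyp3a44. AGGTCA stood at -162 in Cyp3a11 and at -150 in Cyp3a44, and the windows of Cyp3a16 and Cyp3a41a had none. TATAAA stood at -234 in Cyp3a11, at -126 in Cyp3a16 and at -122 in Cyp3a41a and Cyp3a44. Over both strands, 20 of the 78 RefSeq promoters of 69 members (25.6%) held AGGTCA against 16.3% of all 32851 promoters, and 30 (38.5%) held TATAAA against 13.6%. Direct repeats of AGGTCA spaced by 1 or 4 bases were in none of the member promoters and in 0.0396% and 0.0152% of all. A match is a string of letters and was not tested as a site.

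The same likeness limits the measurement. Of the 75-base windows of the transcripts (GENCODE M21, GRCm38), 95.3% in Cyp3a41a and 90.9% in Cyp3a41b were also present in another gene, as were 54.8% in Cyp2c40, 43.2% in Cyp2c69, 30.4% in Cyp4a32 and 23.5% in Cyp2a5. The share was 11.0% in Cyp3a44 and 3.66% in Cyp3a11, 35 of 90 members with a transcript shared no window, and 11 shared over 20%. The division of reads between Cyp3a41a and Cyp3a41b is therefore uncertain, and they are best read as 1 measurement.

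Of the 91 members, 68 reached an FPKM of at least 1 in at least 1 of the 16 groups, 21 stayed above 0 but under 1 everywhere and 2 (Cyp2t4 and Cyp4a29) were listed at 0 throughout. The limit of 1 was reached by 63 members in liver, 42 in WAT, 40 in skeletal muscle and 20 in brain. By the mean over the 4 groups, 55 of the 68 were highest in liver. The brain was highest for 6, namely Cyp26b1, Cyp2j9, Cyp2j12, Cyp2u1, Cyp46a1 and Cyp4x1. WAT was highest for another 6, namely Cyp1b1, Cyp2s1, Cyp4b1, Cyp4f16, Cyp4f18 and Cyp20a1, and skeletal muscle for Cyp4f39 alone. Members under 1 everywhere included the adrenal and gonadal enzymes Cyp11b1, Cyp11b2, Cyp19a1 (aromatase) and Cyp21a1, the vitamin D enzymes Cyp24a1 and Cyp27b1, and the male-biased liver genes Cyp4a12a and Cyp4a12b.

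In liver, the summed FPKM of the members was 13239.5 in WTAL, 18765 in WTDR, 23218 in KOAL and 22347 in KODR. Cyp2e1, which oxidises ethanol and other small molecules, was the most abundant in every group at 3436, 5716, 6617 and 7621 (in the order WTAL, WTDR, KOAL, KODR, kept throughout) and made up 26.0% to 34.1% of the sum. The Cyp4a subfamily held 14.2% to 21.9%, Cyp2c 9.90% to 16.6%, Cyp2a 6.94% to 11.8% and Cyp3a 6.78% to 12.6%. The next most abundant single members by mean level were Cyp4a14, Cyp2d26, Cyp4a10, Cyp2a5 and Cyp3a11. The hepatocyte marker list (18 of 20 genes found, none at 0) summed to 88202 in WTAL liver and to 163548 to 184426 in the other 3 liver groups, so WTAL was low for hepatocyte genes outside the P450 family as well. The part of this in the P450 differences against WTAL was not tested.

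The restriction of KO mice gave the clearest liver differences. In KODR against KOAL, 3 of 61 tested members (4.92%) passed the FDR of 10%, all lower in KODR, against 0.335% of all 13747 tested entries that were called lower and 0.611% called in either direction. They were Cyp3a16, Cyp3a44 and Cyp8b1. The test was a two-sided Wald test on the log2 FPKM difference with Benjamini-Hochberg adjustment over all entries of the tissue and comparison, and it stands behind every adjusted p below.

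Cyp3a44 had an FPKM of 91.9 (95% interval 39.2 to 145) in WTAL, 34.8 (15.6 to 54.0) in WTDR, 150.1 (74.7 to 226) in KOAL and 23.0 (8.79 to 37.3) in KODR. Both AL groups were above both DR groups, and the KOAL interval lay clear of the 2 DR intervals while that of WTAL overlapped the WTDR interval. The log2 difference of KODR against KOAL was -2.70 (SE 0.57, Wald test adjusted p of 0.000734), and that of KOAL against WTDR was 2.11 (SE 0.54, adjusted p of 0.0160). Within WT mice the value was -1.40 (SE 0.57, adjusted p of 1.00).

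Cyp3a16, a form long known from fetal and female liver, had 76.0, 27.9, 65.5 and 17.3. The KODR interval of 8.44 to 26.2 lay below that of KOAL, 36.5 to 94.5. Its log2 difference was -1.92 for KODR against KOAL (SE 0.49, Wald test adjusted p of 0.0187) and -1.45 for WTDR against WTAL (SE 0.55, adjusted p of 0.988). Cyp3a41a, a female-predominant form, had 505, 185, 535 and 148, with -1.86 in KO mice (SE 0.65, adjusted p of 0.410) and -1.45 in WT mice (SE 0.65, adjusted p of 1.00). Cyp3a41b, with which it shares nearly all of its sequence, had 503, 185, 535 and 146. Cyp3a16, Cyp3a41a, Cyp3a41b and Cyp3a44 thus showed lower values in DR in each genotype, though only Cyp3a16 and Cyp3a44 passed the test and only in KO mice.

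Cyp3a11, the main PXR-responsive drug-oxidising form of mouse liver and the next gene along the chromosome, passed no test. It had 155 (37.7 to 272) in WTAL, 947 (85.7 to 1809) in WTDR, 501 (244 to 759) in KOAL and 827 (186 to 1469) in KODR. Only WTAL was low, and its interval overlapped all 3 others. The log2 differences were 2.61 for WTDR against WTAL (SE 0.85, Wald test adjusted p of 0.509), 1.69 for KOAL against WTAL (SE 0.66, adjusted p of 1.00) and 0.72 for KODR against KOAL. The remaining members of the subfamily, Cyp3a13, Cyp3a25, Cyp3a57 and Cyp3a59, differed between diets by no more than 0.53 on the log2 scale in either genotype.

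**Figure D1:**
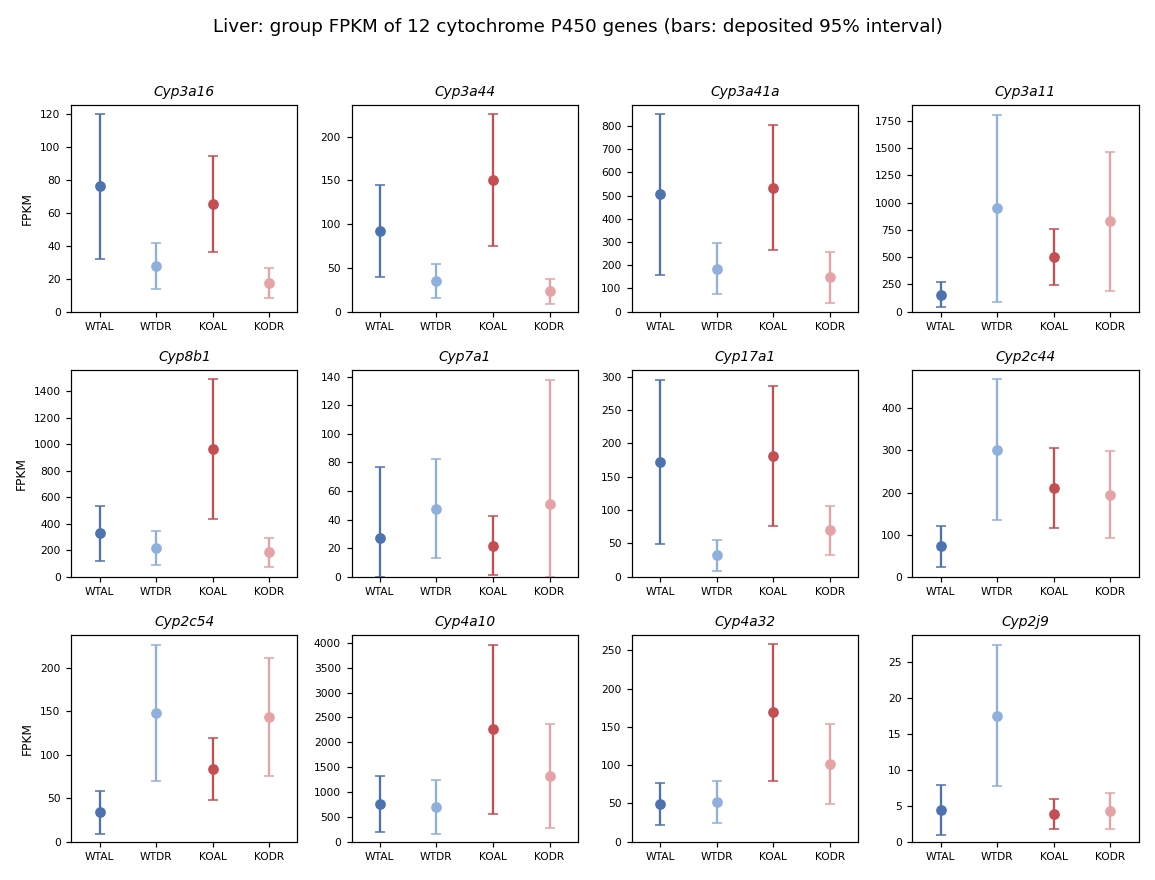
Liver FPKM (linear axes from 0) of 12 P450 genes in the WTAL, WTDR, KOAL and KODR groups, with points for the deposited group value and bars for its 95% interval. Cyp3a16, Cyp3a44 and Cyp3a41a are lower in both DR groups, Cyp8b1 is high in KOAL alone at 960.0 and Cyp2j9 in WTDR alone at 17.6.

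Among the bile acid and cholesterol hydroxylases, Cyp8b1 differed. Cyp8b1 is the sterol 12alpha-hydroxylase that directs synthesis to cholic acid, and it is a single-exon gene on chromosome 9 (121914356 to 121916305). It had 329 (122 to 537) in WTAL, 216 (89.7 to 341) in WTDR, 960.0 (432 to 1488) in KOAL and 184 (75.7 to 292) in KODR. KOAL was the high group, and its interval lay above those of both DR groups and overlapped that of WTAL. It fell by 2.38 on the log2 scale in KODR against KOAL (SE 0.58, Wald test adjusted p of 0.00946), and it was higher in KOAL than in WTDR by 2.16 (SE 0.58, adjusted p of 0.0302). Against WTAL, KOAL differed by 1.54 (SE 0.60, adjusted p of 1.00), and the interaction of genotype and diet was -1.77 (SE 0.85, adjusted p of 1.00).

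Cyp7a1, the rate-limiting enzyme of bile acid synthesis, had 27.0, 47.7, 21.7 and 51.1. Its intervals were wide, reached 0 in WTAL and KODR, and all overlapped. The difference of KODR against KOAL was 1.23 (SE 1.41, Wald test adjusted p of 1.00). Cyp39a1, an oxysterol 7alpha-hydroxylase, had 10.6, 9.33, 23.6 and 18.1, higher in both KO groups, with 1.16 for KOAL against WTAL (SE 0.55, adjusted p of 1.00) and 0.96 for KODR against WTDR (SE 0.48, adjusted p of 1.00). Cyp27a1, the mitochondrial sterol 27-hydroxylase, had 194, 293, 318 and 282 and Cyp7b1 had 7.23, 10.2, 9.75 and 11.4, in both cases with overlapping intervals. Outside the family, none of the 14 bile acid pathway genes tested in liver was called in any of the 5 comparisons. At an unadjusted p under 0.05 the bile acid and cholesterol hydroxylases gave Cyp8b1, Cyp39a1 and Cyp2c70, in at least 1 comparison each.

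In KOAL against WTDR, 4 of 63 tested members (6.35%) were called, against 0.89% of all tested entries. Besides Cyp3a44 and Cyp8b1 they were Cyp17a1, higher in KOAL, and Cyp2j9, higher in WTDR. Cyp17a1, the steroid 17alpha-hydroxylase that is also made in female mouse liver, had 172 (49.5 to 295), 31.9 (8.18 to 55.6), 181 (76.3 to 286) and 69.3 (32.3 to 106). Each AL group was above the DR group of its genotype, and the WTDR interval lay below that of KOAL. The log2 difference of KOAL against WTDR was 2.51 (SE 0.68, Wald test adjusted p of 0.0338), that of WTDR against WTAL -2.44 (SE 0.74, adjusted p of 0.314) and that of KODR against KOAL -1.39 (SE 0.57, adjusted p of 0.917).

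Cyp2j9, one of the arachidonic acid epoxygenases and better known from brain, had 4.42 (0.931 to 7.91), 17.6 (7.70 to 27.5), 3.84 (1.73 to 5.95) and 4.31 (1.81 to 6.82). WTDR alone was high, and its interval lay above those of both KO groups. It differed by -2.19 in KOAL against WTDR (SE 0.57, Wald test adjusted p of 0.0192), by -2.03 in KODR against WTDR (SE 0.58, adjusted p of 0.153) and by 1.99 in WTDR against WTAL (SE 0.70, adjusted p of 0.725). With differences centred on the median of all entries, Cyp2j9 was called in KODR against WTDR as well.

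No member was called by the Wald test in liver in KOAL against WTAL, WTDR against WTAL or KODR against WTDR, where 0.316%, 0.236% and 0.288% of all tested entries were called, and none for the interaction of genotype and diet, where 0.086% were. At an unadjusted p under 0.05 the members numbered 9 of 61 (14.8%), 15 of 63 (23.8%), 2 of 63 (3.17%) and 3 of 63 (4.76%), against 2.03%, 2.91%, 1.78% and 1.05% of all entries. With a smaller SE, from SDs divided by the root of the library number, 9, 15, 4 and 2 members were called, against 1.54%, 2.86%, 2.64% and 0.803% of all entries. In KODR against KOAL and in KOAL against WTDR that setting called 11 and 24 members, against 4.8% and 9.99%.

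In liver, all 12 tested Cyp2c members, which hydroxylate drugs and make epoxides of arachidonic acid, had higher values in WTDR than in WTAL, with a median log2 difference of 1.36 (0.77 to 3.54) against 0.03 over all tested entries, and none was called. In KOAL against WTAL all 11 tested were higher, with a median of 0.83 against 0.16 over all entries. In KODR against KOAL 8 of 11 were higher and the median was 0.30. The hepatocyte markers gave medians of 0.76, 0.71 and -0.04 in the same 3 comparisons, with 16, 18 and 9 of 18 higher, and their part in the Cyp2c values was not tested.

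Cyp2c44 had 72.8 (24.2 to 122), 302 (135 to 469), 210.4 (116 to 305) and 195 (91.1 to 298), low in WTAL alone and with no overlap between the intervals of WTAL and WTDR. Its log2 difference of WTDR against WTAL was 2.05 (SE 0.63, Wald test adjusted p of 0.314) and its interaction -2.16 (SE 0.80, adjusted p of 1.00). Cyp2c54 had 33.8, 148, 83.9 and 143, with 2.13 for WTDR against WTAL (SE 0.65, adjusted p of 0.315). Cyp2c70, which makes the rodent muricholic acids, had 59.7, 174, 77.9 and 161, and so stood higher in both DR groups.

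Of the members known to respond to CAR or PXR, all 8 tested had higher values in WTDR than in WTAL and all 7 tested were higher in KODR than in KOAL. Their median log2 differences were 1.49 and 0.72, against 0.03 and -0.03 over all tested entries, and none was called. This list includes Cyp2c37, Cyp2c50, Cyp2c54 and Cyp2c55, so it overlaps the Cyp2c members above. The part of hepatocyte RNA in these values was not tested. Cyp2b10, the classical CAR target, had 7.42, 22.8, 5.89 and 15.8, higher in both DR groups, with intervals that overlapped throughout. Nr1i3 (CAR) itself had 263, 249, 278 and 308 and Nr1i2 (PXR) 41.0, 54.3, 42.1 and 57.4. Of the 21 receptors and factors found of a list of 24, Nfil3, a circadian repressor, was called in 1 liver comparison and no other was called in any. It had 31.7, 26.2, 56.9 and 10.7 and fell by 2.41 on the log2 scale in KODR against KOAL (SE 0.49, Wald test adjusted p of 0.000245). Cyp1a1 and Cyp1a2, targets of the aryl hydrocarbon receptor, had 1.13 to 3.07 and 178 to 320.1 and were not called.

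**Figure D2:**
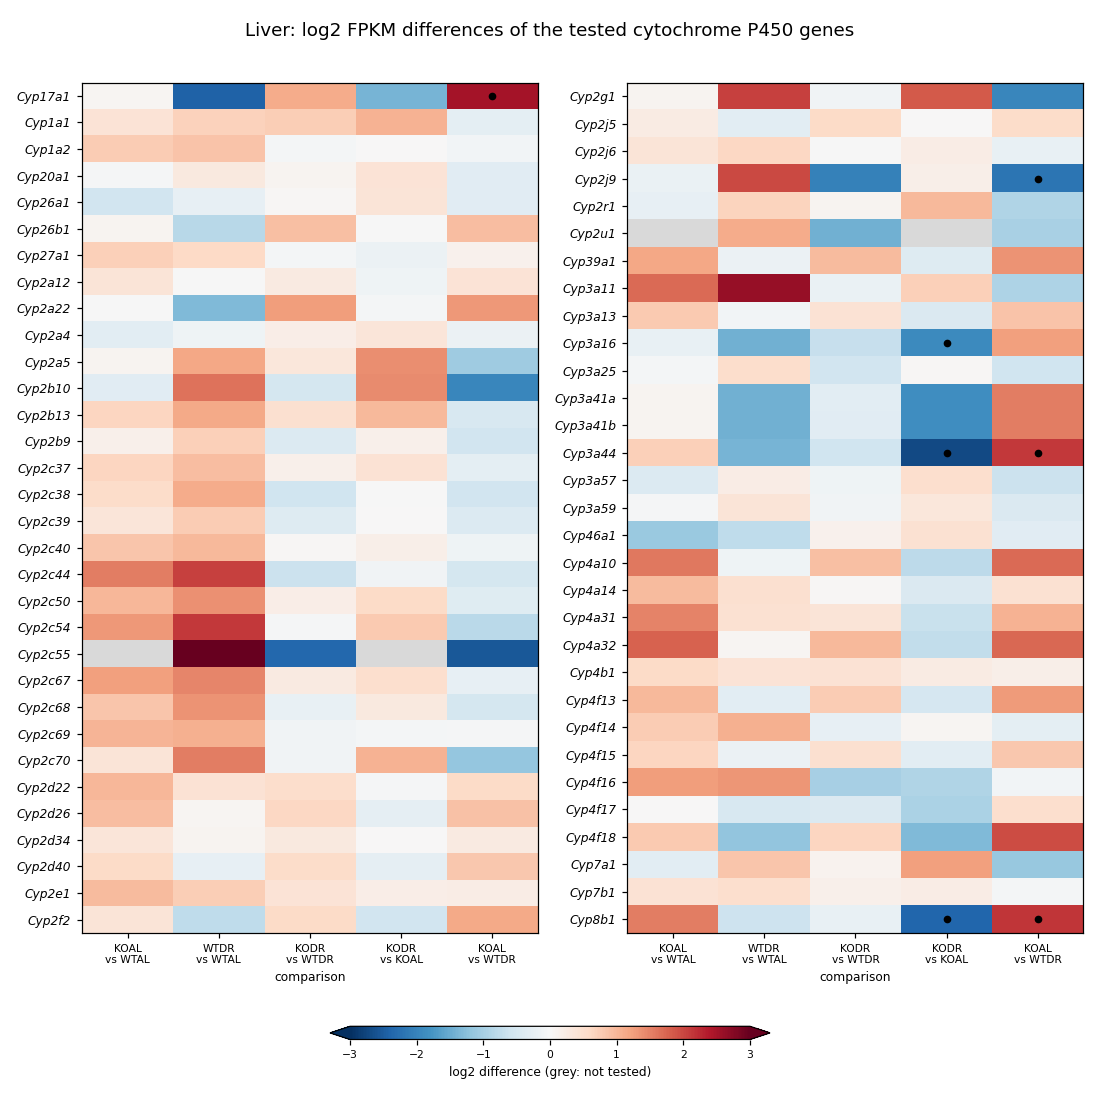
Log2 FPKM differences in liver of the tested P450 genes (rows, by subfamily) in 5 comparisons (columns), with red for higher and blue for lower in the first-named group, grey for not tested and a black dot for an adjusted p under the FDR of 10%. Dots mark 3 members in KODR against KOAL and 4 in KOAL against WTDR, and the Cyp2c rows are all red in WTDR against WTAL.

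The 4 tested Cyp4a members, fatty acid omega-hydroxylases and PPARalpha targets, had their highest values in KOAL. Cyp4a10 had 763, 703, 2267 and 1319, Cyp4a14 1328, 1868, 2580.1 and 1907, Cyp4a31 24.4, 33.4, 68.5 and 43.4, and Cyp4a32 49.2, 51.4, 169 and 101. For Cyp4a32 the KOAL interval of 79.7 to 258 lay above those of WTAL and WTDR, and for Cyp4a10 and Cyp4a14 all intervals overlapped. All 4 tested Cyp4a members were lower in KODR than in KOAL, by 0.44 to 0.78 on the log2 scale, and none was called in any liver comparison. The adjusted p of Cyp4a32 was 0.143 in KOAL against WTDR, where the log2 difference was 1.72 (SE 0.54, Wald test). Of the 17 tested PPARalpha targets outside the family, 15 had higher values in KOAL than in WTAL (median 0.28) and 13 lower values in KODR than in KOAL (median -0.31). Fgf21, a liver hormone of fasting, was the only one called, at 32.8, 34.9, 96.1 and 18.5 and with -2.37 in KODR against KOAL (SE 0.52, adjusted p of 0.00112).

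Members with a sex-biased level in mouse liver gave no common direction. Of the 12 female-biased members, 5 had higher and 7 lower values in WTDR than in WTAL, and 4 higher and 8 lower values in KODR than in KOAL. The lower ones included Cyp3a41a, Cyp3a41b, Cyp3a44 and Cyp17a1 in each genotype, while Cyp2b13 had 119.6, 261, 187 and 366 and was higher in both DR groups. Of the 6 members found on the male-biased list, Cyp8b1 and Cyp2f2 (382, 226, 501 and 335) were lower in DR in each genotype. Cyp7b1 (7.23, 10.2, 9.75 and 11.4) was higher in DR in each, and Cyp2u1 (0.806, 1.73, 0.887 and 0.641) differed in direction between genotypes. The male-biased Cyp4a12a and Cyp4a12b stayed at or under 0.15 in every liver group. Outside the family, female-biased liver genes (9 of 10 found, none at 0) summed to 2276, 1595, 1193 and 926. Male-biased ones (15 of 15 found, 1 at 0 in each group) summed to 2086, 2850, 3259 and 1975. The female-biased A1bg was called lower in KODR than in WTDR, at 1607, 900.4, 407 and 121 and with -2.90 (SE 0.67, Wald test adjusted p of 0.00800). From WTAL to each other group A1bg fell by more than the female-biased sum did. The rest of that list together did not fall, and the sum gives no common direction of its genes. The electron donors were not called: Por, the reductase that serves microsomal P450 enzymes, had 254, 349, 357 and 441, and Cyb5a, cytochrome b5, 1857, 2457, 2509 and 3137. None of 7 electron transfer partners and none of 12 genes of haem synthesis and breakdown was called in any liver comparison.

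The diet differences of the 2 genotypes, which share no group, were correlated across members in liver. The interaction was below 0 for 49 of 63 tested members, with a median of -0.43, but none was called (0.086% of all entries were). It was above 0 for 22.2% of members against 44.4% of all entries. Whether the differences were unequal in size is thus not settled. WTAL, which was low for hepatocyte markers, enters the interaction, and the part of this was not tested. Over the 61 members tested in both, the log2 difference of WTDR against WTAL and that of KODR against KOAL had Pearson's r = 0.70 and Spearman's rho = 0.66 across genes, and 47 (77.0%) had the same sign. Over all 13011 entries tested in both, r was 0.29 and 61.2% had the same sign. Genes are not independent replicates, and members of a subfamily share sequence, so no p is given. The genotype differences under AL and under DR gave r = 0.18 over the 61 members, with 34 (55.7%) of the same sign. Over all 12913 entries tested in both, r was 0.13 and 56.4% had the same sign, so the members stood near the value of all entries.

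**Figure D3:**
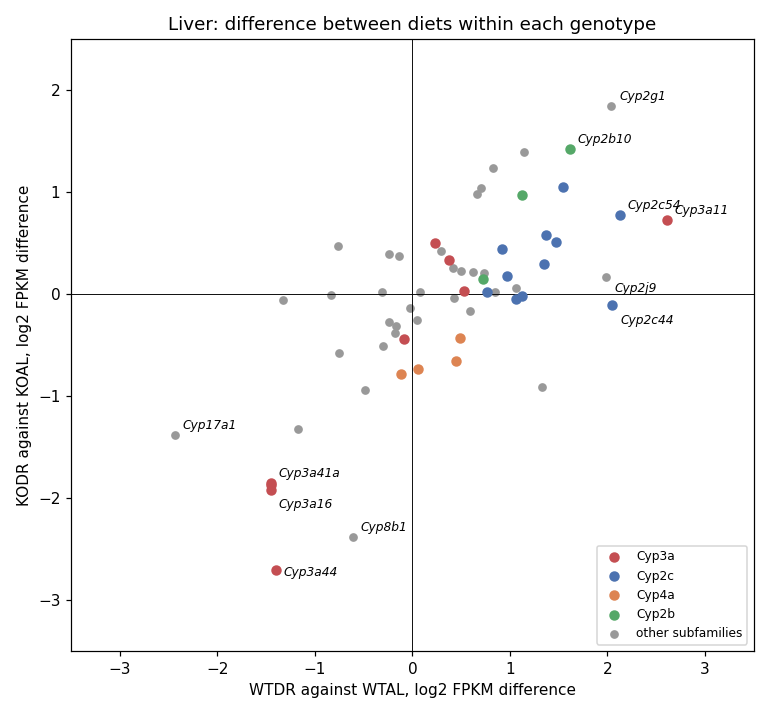
Log2 FPKM difference between diets in liver for each P450 gene, WTDR against WTAL on the x axis and KODR against KOAL on the y axis, with colours for 4 subfamilies. Of 61 genes 47 lie in the quadrants of equal sign, with Cyp17a1 and 4 Cyp3a genes at the lower left and Cyp3a11, Cyp2b10 and Cyp2g1 at the upper right.

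In skeletal muscle, the P450 genes fell into a small set with a level in every group and a larger set that stood at a level in WTDR. The first set was led by Cyp2e1, at 30.5 (10.7 to 50.4), 102 (30.4 to 174), 95.4 (33.9 to 157) and 146 (61.7 to 231), and by Cyp27a1, at 84.7, 62.2, 51.0 and 61.6. Cyp2d22 (5.83 to 9.77), Cyp4f13 (5.01 to 8.91), Cyp4b1 (2.52 to 7.59) and Cyp4f39 (1.99 to 5.22) followed. None of these was called in any comparison. For Cyp2e1 the intervals of WTAL and KODR did not overlap, and adipocyte markers (11 of 11 found, none at 0) summed to 4949, 4094, 6364 and 8532 in the same groups, whose part was not tested.

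The second set was made up of liver enzymes. An FPKM of at least 1 was reached by 36 members in WTDR muscle but by 14 in WTAL, 14 in KOAL and 18 in KODR. All 11 members called below in WTDR against WTAL were at or under 0.497 in WTAL and so entered the test only through WTDR, where they were high, and the counts against WTDR are a description of the members that entered. Of 34 tested members, 11 (32.4%) were called higher in muscle of WTDR than of WTAL mice, against 0.795% of all entries, and none lower (1.4% of entries in either direction). KODR against WTDR had 13 of 40 called, all lower, against 1.35% of entries called lower and 2.23% in either direction. KOAL against WTDR had 11 of 38 called, all lower, against 0.898% and 1.89%. KOAL against WTAL (0.681% of entries called), KODR against KOAL (0.5%) and the interaction (0.371%) had none by the Wald test, with 1 of 15, 0 of 19 and 6 of 34 members at an unadjusted p under 0.05, against 3.18%, 2.01% and 2.30% of entries. With the smaller SE 1, 0 and 6 were called, against 3.64%, 2.69% and 2.77% of entries. With 1 FPKM added to each value the interaction called 14 members, against 1.17% of entries. Many members entered the interaction only through WTDR too, and the added FPKM shrinks the error of values near 0. This count is therefore likewise a description of the members that entered.

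Cyp4a14 had 0.497 (0 to 1.35) in WTAL, 36.5 (9.73 to 63.2) in WTDR, 0.515 (0 to 1.35) in KOAL and 1.42 (0.286 to 2.55) in KODR, and only the WTDR interval stood apart. It rose by 6.20 on the log2 scale from WTAL to WTDR (SE 1.34, Wald test adjusted p of 0.000822). Cyp2d26 had 0.0762, 14.3, 0.481 and 1.19, with 7.56 (SE 1.85, adjusted p of 0.00630), and Cyp3a11 had 0.103, 10.7, 0.134 and 0.246, with 6.69 (SE 1.69, adjusted p of 0.00915). Cyp1a2, Cyp2a4, Cyp2b9, Cyp2c37, Cyp2c44, Cyp2c50, Cyp2c69 and Cyp4a10 were also called, by 5.16 to 7.41. As the lower group was near 0, these differences depend heavily on small values.

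The hepatocyte markers moved with this set. In muscle they summed to 163 in WTAL, 3470.1 in WTDR, 254 in KOAL and 349 in KODR, none was at 0 in any group, and 14 of 18 were called higher in WTDR than in WTAL. Taken as a percent of the liver FPKM of the same group, the 43 members with a liver FPKM of at least 20 had a median of 1.75% in WTDR muscle (quartiles 1.11% and 2.43%) and the 18 hepatocyte markers 1.91% (1.71% and 2.53%). In WTAL, KOAL and KODR the medians of the 42, 43 and 41 members past that limit were 0.0395%, 0.0365% and 0.0687% and those of the markers 0.0345%, 0.0347% and 0.0857%. P450 genes typical of liver and other hepatocyte genes thus stood at a like fraction of their liver level in each muscle group. The part of hepatocyte RNA in these calls was not tested, and with 1 value per group it cannot be said how many WTDR libraries carried it.

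**Figure D4:**
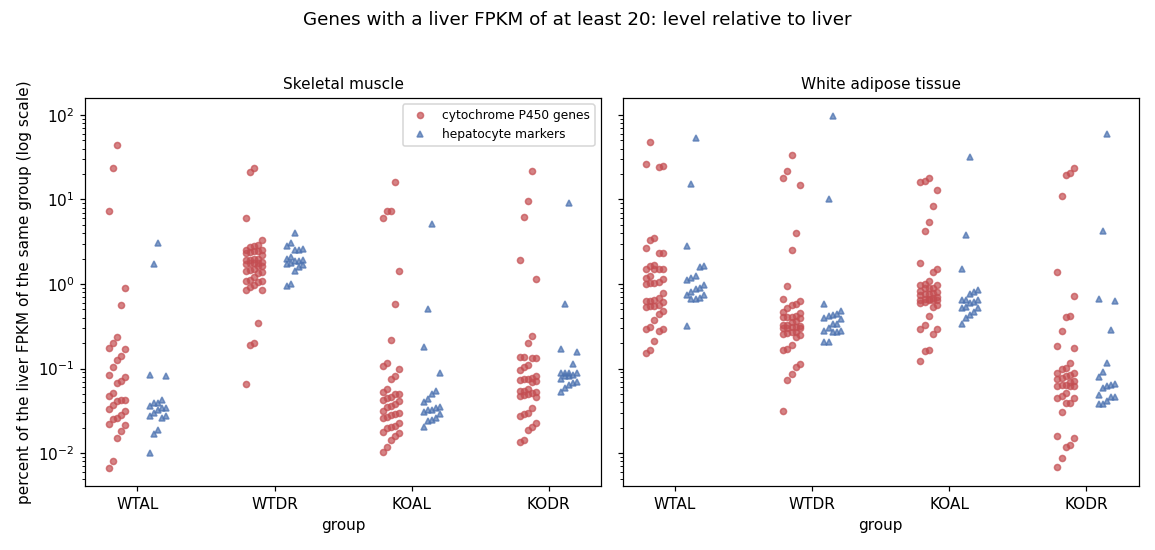
FPKM in skeletal muscle (left) and WAT (right) as a percent of the liver FPKM of the same group (log axis), for P450 genes (circles) and hepatocyte markers (triangles) with a liver FPKM of at least 20. Genes listed at 0 are not drawn. The medians of the sets are 1.75% and 1.91% in WTDR muscle and no higher than 0.0857% in the other 3 muscle groups.

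In brain no member was called by the Wald test, where KOAL against WTAL, WTDR against WTAL, KODR against WTDR, KODR against KOAL, KOAL against WTDR and the interaction called 0.203%, 0.224%, 1.16%, 0.365%, 0.577% and 0.396% of all entries. At an unadjusted p under 0.05 the 18 to 20 tested members gave 0, 1, 2, 0, 1 and 2, against 1.81%, 2.22%, 7.50%, 2.51%, 3.54% and 3.53% of entries. The smaller SE called 0, 1, 4, 1, 4 and 2, against 1.41%, 1.73%, 18.5%, 4.33%, 6.59% and 5.15% of entries. Cyp46a1, the neuronal cholesterol 24-hydroxylase that carries cholesterol out of the brain, was the most abundant member at 38.8 (13.2 to 64.3), 53.5 (32.3 to 74.7), 41.9 (20.8 to 63.0) and 56.4 (35.1 to 77.7), with wide overlap. Cyp2d22 had 10.3, 10.3, 20.0 and 18.6, higher in both KO groups, Cyp2j9 had 10.7, 7.04, 13.1 and 7.81, and Cyp27a1 had 16.7, 5.12, 5.06 and 9.52. Cyp26b1, which clears retinoic acid, had 6.46 (2.21 to 10.7), 2.01 (1.14 to 2.87), 3.61 and 4.01, with -1.69 for WTDR against WTAL (SE 0.57, adjusted p of 0.598). Neuron and glia markers (15 of 15 found, none at 0) summed to 6460.0, 3711, 7180.0 and 7019, but from WTAL to WTDR 8 were higher and 7 lower, with a median log2 difference of 0.10 and none called.

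In WAT, Cyp2e1 was the most abundant member by far, at 865, 1246, 1083 and 1471 with an interval of 0 to 5168 in KODR, followed by Cyp4b1 at 80.6, 31.2, 42.1 and 43.0, Cyp27a1 at 47.0, 43.5, 41.7 and 31.0 and Cyp2d22 at 38.5, 19.5, 26.1 and 36.7. All of these had overlapping intervals and none was called. KOAL against WTAL had 2 of 41 members called, both higher (1.04% of entries called higher and 1.29% in either direction). WTDR against WTAL had 2 of 36 called, both lower (0.308% and 0.57%), KODR against KOAL 2 of 42, both lower (0.418% and 0.707%), and KOAL against WTDR 2 of 41, both higher (0.517% and 0.642%). In these last comparisons the called pair was Cyp3a41a and Cyp3a41b, read above as a single measurement. Both were under the limit of 1 in the DR groups and entered only through the AL group, so their direction was fixed by the limit. KODR against WTDR (0.283% in either direction) and the interaction (0.121%) had none, with 3 of 32 and 4 of 42 at an unadjusted p under 0.05 by the Wald test, against 1.505% and 1.564% of entries, and the same numbers with the smaller SE, against 1.13% and 1.2% of entries.

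Cyp26a1, the retinoic acid 4-hydroxylase, had 0.278 (0 to 0.645) in WTAL, 0.0912 (0 to 0.311) in WTDR, 5.22 (2.89 to 7.55) in KOAL and 0.160 (0 to 0.585) in KODR. Only the KOAL group had a level, and its interval lay above the other 3. The log2 difference of KOAL against WTAL was 4.23 (SE 1.01, Wald test adjusted p of 0.00433), while the adjusted p was 0.132 against WTDR and 0.576 for KODR against KOAL. Cyp26a1 was under the limit of 1 in the other 3 groups and entered these tests only through KOAL. Its direction was therefore fixed by the limit, and the call is a description of a member that entered. In liver the same gene had 16.9, 14.4, 11.3 and 14.8. Keratinocyte and mammary markers (7 of 7 found) summed to 5.48, 6.90, 71.4 and 62.1 in the 4 WAT groups, with Wap at 0 in all 4, and Krt8, Krt18 and Epcam were called higher in KOAL than in WTAL. The sum of the keratinocyte and mammary markers was high in both KO groups. WAT of KODR also carried genes known from ovary and other steroid-making tissue, given below. Skeletal muscle markers (15 of 15 found, none at 0) summed to 565, 548, 1624 and 909.6 in WAT, highest in KOAL, and 11 were called higher there than in WTAL. Adipocyte markers (11 of 11 found, none at 0) summed to 39284, 51996, 24944 and 31297, lowest in KOAL, and none was called in that comparison. The part of these lists in the Cyp26a1 value was not tested.

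Cyp3a41a and Cyp3a41b account for the other WAT calls. Cyp3a41a had 1.47 (1.27 to 1.66), 0.160 (0.0731 to 0.247), 2.89 (1.90 to 3.88) and 0.112 (0.00298 to 0.221), with both AL groups above both DR groups and no overlap between diets. Cyp3a41b had 1.57 (0.201 to 2.94), 0.137 (0.0596 to 0.214), 3.43 (2.27 to 4.58) and 0.0922 (0 to 0.195). Its WTAL interval was much wider than that of Cyp3a41a and overlapped its WTDR interval. The log2 differences of Cyp3a41a were -3.20 for WTDR against WTAL (SE 0.40, Wald test adjusted p of 6.23e-12), -4.69 for KODR against KOAL (SE 0.74, adjusted p of 2.49e-07) and 0.98 for KOAL against WTAL (SE 0.26, adjusted p of 0.0243). These are low levels of 2 genes that share nearly all their sequence, and with a minimum FPKM of 5 the pair was no longer tested. In KOAL against WTAL Cyp3a41a was called and Cyp3a41b was not, and the division of reads between them is uncertain.

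Other liver-type members were low in WAT of KODR mice without passing the test. Cyp3a11 had 3.63, 2.24, 3.45 and 0.0978, Cyp4a10 4.37, 4.13, 3.76 and 0.213, and Cyp4a14 7.22, 10.7, 6.68 and 0.237, and their adjusted p in KODR against KOAL was 0.110, 0.119 and 0.252 (Wald test). An FPKM of at least 1 was reached by 41 members in KOAL and 18 in KODR, so most of the 42 tested members entered that comparison only through KOAL. The calls given above for it only describe such members, and no other count of directions is drawn from them. As a percent of liver, the members' median was 1.01%, 0.326%, 0.755% and 0.0710% and that of the hepatocyte markers 0.939%, 0.362%, 0.630% and 0.0650%. The markers summed to 2763, 2035, 2139 and 1531 in WAT, with none at 0. The highest marker of each group stood at 53.1%, 97.4%, 32.2% and 60.0% of its liver FPKM. The upper quartiles were 1.51%, 0.441%, 0.795% and 0.244%, so the sums need not follow the medians. In KODR against KOAL, 4 of 18 markers were called lower. Their part in the P450 values was not tested.

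**Figure D5:**
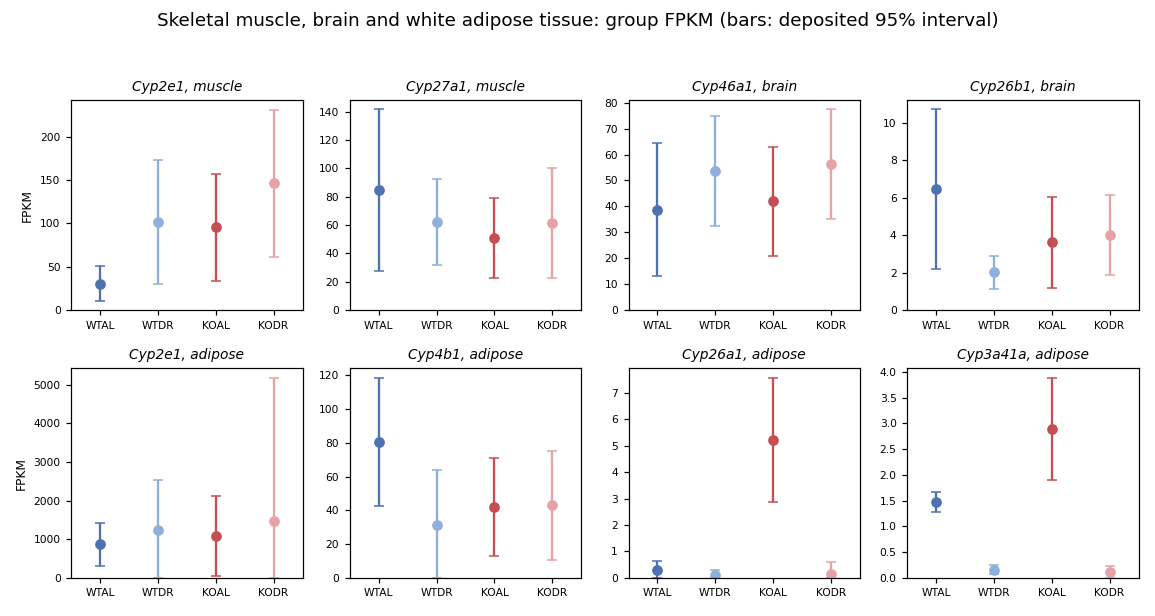
FPKM (linear axes from 0) of P450 genes in skeletal muscle, brain and WAT in the WTAL, WTDR, KOAL and KODR groups, with points for the deposited group value and bars for its 95% interval. Cyp26a1 in WAT has a level in KOAL alone (5.22), Cyp3a41a in WAT is higher in both AL groups, and Cyp46a1 in brain is alike in all 4.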

How the data were processed

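The 43 libraries were grouped by their labels alone, and the members and gene lists were chosen with earlier results of these data known. Per the labels, and the study's methods, the authors trimmed Ion Proton reads with cutadapt 1.5 and sickle, mapped them to GRCm38 with BBmap and ran Cuffdiff 2.2.1 with its correction for multiply mapped reads. The deposited FPKM values are pooled per group, with a 95% interval and a status. No value per library was used here, so depth is unknown and the precision is that of the intervals. Of the entries, 873 join several genes. No column belonged to another series.

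For each FPKM, the distance to its upper bound was divided by 2 to give an SD. Log2 differences were tested with a two-sided Wald test (delta-method standard error, normal reference) and adjusted by the Benjamini-Hochberg method over all tested entries of a tissue and comparison, at an FDR of 10%. Entries needed an FPKM above 0 in both groups (all 4 for the interaction) and of at least 1 in 1 of them. The test was tried on simulated data. Python 3.11.15, numpy 2.4.6, pandas 2.3.3, scipy 1.17.1, biopython 1.88 and matplotlib 3.10.9 were used.

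Genes named are those called, the most abundant in each tissue, those on role, pathway and marker lists, up to 3 with the largest difference per comparison, and members the study lists under oxidoreductase terms. Others, such as Cyp2g1, Cyp3a57, Cyp3a59 and Cyp2c44, may fall outside this rule and were named after their values were seen. Alternatives were SDs divided by the root of the library number (the smaller SE), a pseudocount of 1, no minimum FPKM, a minimum of 5, and centring on the median. Promoters are from RefSeq (GRCm38.p6), matched by symbol for 69 of 91 members, and transcripts from GENCODE M21.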

Additional observations from a re-analysis of the deposited data

Results flagged for a closer look

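Entries outside the rule also showed differences. Cyp51, the lanosterol demethylase of cholesterol synthesis, had a liver FPKM of 14.1 (5.73 to 22.4) in WTAL, 39.3 (7.25 to 71.3) in WTDR, 12.7 (7.27 to 18.1) in KOAL and 38.0 (20.4 to 55.7) in KODR. Both DR groups were high, and the log2 difference of KODR against KOAL was 1.58 (SE 0.45, Wald test adjusted p of 0.0822).

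The joined entry of Cyp11a1, the enzyme that starts steroid hormone synthesis, and Gm17322 had 0.506, 0.168, 0.454 and 543 in WAT, where the KODR interval ran from 0 to 2362. The log2 difference was 11.7 against WTDR and 10.2 against KOAL, both past the FDR of 10%. Beside it, Hsd3b1 had 335 in WAT of KODR and 0 in the other 3 groups, Inha 164, Star 18.7, Akr1c18 17.7, Amh 10.2, Nr5a1 8.99 and Hsd17b1 7.45, each at or under 1.54 in the other 3 groups. These genes, known from ovary and other steroid-making tissue, were chosen after their values were seen, and which libraries carried them was not tested.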

How the results depend on the processing

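Each count of members called under an alternative is given with the percent of all entries called under it. With the smaller SE, liver had 9 (KOAL against WTAL, 1.54%), 15 (WTDR against WTAL, 2.86%), 4 (KODR against WTDR, 2.64%), 11 (KODR against KOAL, 4.8%), 24 (KOAL against WTDR, 9.99%) and 2 (interaction, 0.803%). In muscle this gave 1 (KOAL against WTAL, 3.64%), 23 (KODR against WTDR, 10.7%), 24 (KOAL against WTDR, 8.03%) and 6 (interaction, 2.77%), in brain 1 (WTDR against WTAL, 1.73%), 4 (KODR against WTDR, 18.5%), 1 (KODR against KOAL, 4.33%), 4 (KOAL against WTDR, 6.59%) and 2 (interaction, 5.15%), and in WAT 3 (KODR against WTDR, 1.13%), 19 (KODR against KOAL, 7.39%), 4 (KOAL against WTDR, 3.47%) and 4 (interaction, 1.2%). A smaller standard error makes more calls by construction. With a pseudocount of 1, muscle had 19 (KOAL against WTDR, 2.56%) and 14 (interaction, 1.17%), and WAT 1 (WTDR against WTAL, 0.791%), 2 (KODR against WTDR, 0.459%), 9 (KODR against KOAL, 1.23%) and 1 (interaction, 0.28%). With a minimum FPKM of 5, WAT had 1 (KOAL against WTAL, 1.58%) and 0 (WTDR against WTAL, 0.718%, KODR against KOAL, 1.06%, and KOAL against WTDR, 0.791%), since fewer entries were tested, and centring gave 1 in liver (KODR against WTDR, 0.295%). The other 90 of 120 counts stayed within 1.5 times, and no named difference reversed under these 5 settings. No paired analysis was possible because the deposited values are pooled over each group, and for the same reason no library was left out in turn. Depth per library is unknown.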

Other observations

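In WTDR muscle, where most liver-type P450 genes stood near 1.75% of their liver FPKM, 4 members were far lower: Cyp3a16 at 0.0652%, Cyp3a41a at 0.190%, Cyp3a41b at 0.203% and Cyp7a1 at 0.349%. They were picked out after their values were seen. Their muscle FPKM values were 0.0182, 0.351, 0.375 and 0.167, at liver values of 27.9, 185, 185 and 47.7 in the same group. Cyp3a44, with a liver FPKM of 34.8, had 0.378 in the same muscle group.

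Cyp2c29 shared its entry with the pseudogene Cyp2c53-ps and had 314, 635, 469 and 458 in liver. Cyp2d10, joined with Gm27331, had 412, 578, 832 and 673. Cyp4v3 and the plasma prekallikrein gene Klkb1 shared 1 entry and could not be told apart.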
